A study of Mus musculus with 9 samples.

Results

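The genes described are 42 antioxidant genes of the mouse: the transcription factor NRF2 (gene Nfe2l2) and its inhibitor, enzymes that make, recycle and use glutathione, the peroxiredoxin and thioredoxin systems, superoxide dismutases and catalase, enzymes that supply NADPH, an exporter and an oxidase. They were chosen as a list of gene symbols and looked up in a table of 56289 Ensembl gene identifiers, where all 42 were found. Poly-A RNA was sequenced as paired ends in 9 libraries, 3 per group. The groups were TNF plus WBG (TNF-α for 24 h together with Wang Bi granules, a herbal preparation of Chinese medicine), TNF (TNF-α alone for 24 h) and untreated. The labels name RAW264.7, a macrophage-like line of the BALB/c strain, for all 9 libraries, and they do not give the doses. They give no time for the untreated cells, so time in culture and TNF cannot be told apart here. The series is about Wang Bi granules in rheumatoid arthritis. Whether the 3 libraries of a group came from separate cultures is not in the labels, and each p-value then reflects library-to-library spread that may be technical.

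NRF2 is held at a low protein level by KEAP1, which presents it for degradation. When oxidants or electrophiles modify KEAP1, NRF2 accumulates, pairs with a small MAF protein and binds antioxidant response elements in the promoters or enhancers of genes for glutathione synthesis, quinone reduction, heme breakdown, thioredoxin reduction and NADPH supply. Because this control acts mainly on the protein, the mRNA of Nfe2l2 is not a measure of NRF2 activity. Macrophages and fibroblasts make oxidants when inflammatory cytokines act on them, and these genes are the cell's means of clearing them.

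Levels are the authors' FPKM, read fragments scaled to gene length and library size, so that levels of different genes can be compared. The sum of FPKM was 427781 to 436809 per library, and 12611 to 12737 genes reached 1 FPKM. The table holds no counts. The depth, inferred from the spacing of the values, would be 18.9 to 26.0 M (mega) fragments if they are scaled whole fragments. Only 21.2% to 23.8% of the values used per library fitted the inferred depth closely, so it is poorly determined. All 9 libraries went against their cell type label. Of 18 macrophage identity genes 3 had a mean of at least 1 FPKM (Cd68, Cd14 and Mertk), and 5 were listed at 0 throughout, among them Ptprc, Itgam and Adgre1. Of 14 fibroblast genes 10 averaged 1 FPKM or more, and the median gene of this list averaged 122 FPKM. The others were Lum, listed at 0, Thy1 (0.0117 FPKM), Fap (0.0460 FPKM) and Loxl1 (0.825 FPKM). No gene of the lists for neutrophils and mast cells, lymphocytes, or epithelium and endothelium averaged 1 FPKM. The summed macrophage list was 9.78 to 12.3 FPKM with TNF plus WBG, 8.71 to 10.0 FPKM with TNF and 8.93 to 9.61 FPKM in untreated cells, and the summed fibroblast list was 4521 to 4650 FPKM with TNF plus WBG, 4567 to 4819 FPKM with TNF and 4349 to 4699 FPKM in untreated cells. The macrophage sum was therefore higher in all 3 TNF plus WBG libraries than in the untreated ones, 9.78 FPKM against 9.61 FPKM at the nearest. It came mostly from Cd14, Mertk and Cd68 (means of 5.63, 1.93 and 1.30 FPKM), so it is not a measure of macrophage content. Its part in the results was not tested. In bulk RNA, fewer cells of a type and less RNA per cell cannot be told apart.

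The antioxidant genes were mostly well expressed. Of the 42, 7 had a mean of at least 100 FPKM over the 9 libraries, 24 lay at 10 to 100 FPKM, 7 at 1 to 10 FPKM and 4 under 1 FPKM. The 5 highest were the lipid peroxidase Gpx4 (291 FPKM), the glutathione transferase Gstp1 (266 FPKM), the cytosolic superoxide dismutase Sod1 (237 FPKM), the cytosolic peroxiredoxin Prdx2 (182 FPKM) and thioredoxin, Txn1 (137 FPKM). Together they made up 46.2% of the summed FPKM of the 42 genes. That sum was 2328 to 2466 FPKM with TNF plus WBG, 2372 to 2499 FPKM with TNF and 2236 to 2502 FPKM in untreated cells, and the groups overlapped. A gene was tested where it reached 1 FPKM in at least 3 of the 9 libraries, which 38 of the 42 did. The 4 that did not were the quinone reductase Nqo1, the transferase Gsta4, the secreted peroxidase Gpx3 and the endoplasmic reticulum peroxidase Gpx7, the last listed at 0 in every library.

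**Figure D1:**
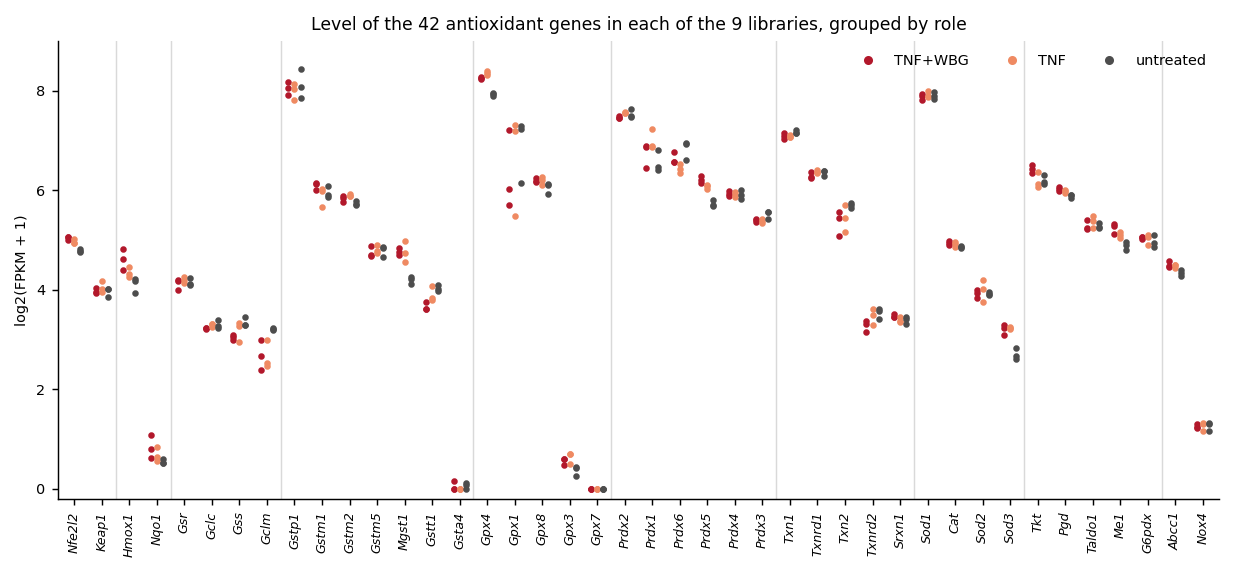
Level of each of the 42 antioxidant genes, as log2(FPKM + 1), in every library, grouped by role and ordered by mean level within a role. Red points are TNF plus WBG, orange points TNF and grey points untreated libraries. Gpx4 averaged 291 FPKM, while Nqo1 (0.620 FPKM), Gpx3 (0.442 FPKM), Gsta4 (0.0260 FPKM) and Gpx7 sit at the bottom, and the points of Gpx1 split into a high and a low set within each group.

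The 250 bases before the annotated start were searched for the core of the antioxidant response element, TGACNNNGC on either strand, since this is the sequence through which NRF2 acts. Promoter windows came from RefSeq (build GRCm38.p6) and were present for 35 of the 42 genes; Hmox1, Gclc, Gsr, Gsta4, Prdx6, Sod3 and Abcc1 had none. A match was present in 8 of the 35 (22.9%), Nfe2l2, Gclm, Gstm5, Mgst1, Prdx1, Txnrd1, Sod1 and G6pdx, beside 11.5% of all 27025 genes with a window. The AP-1 motif TGANTCA was present in 4 of the 35 (11.4%) and in 7.82% of all genes, and the kappaB motif (GGGA, any base, TTTCC) in 0 of the 35 and in 0.414% of all genes. The kappaB pattern is so rare among all genes that 0 of the 35 says little, and sites outside the 250 bases were not searched. The antioxidant and AP-1 motifs share letters, so 1 stretch can match both. The 5 windows printed are those of Nfe2l2 and Mgst1, which hold a match and rose with TNF, and of Gclm, Txnrd1 and Prdx1, standard NRF2 targets that hold a match and did not pass the test. Each reads 5′ to 3′ in the direction of the gene and ends at the base before the start, and capitals mark the match to the antioxidant response element core. A match is a description of the letters and not a site shown to be bound. The windows are chr2:75704664-75704913 (minus strand) for Nfe2l2, chr6:138140277-138140526 (plus strand) for Mgst1, chr3:122245307-122245556 (plus strand) for Gclm, chr10:82858956-82859205 (plus strand) for Txnrd1 and chr4:116685349-116685598 (plus strand) for Prdx1.
Nfe2l2: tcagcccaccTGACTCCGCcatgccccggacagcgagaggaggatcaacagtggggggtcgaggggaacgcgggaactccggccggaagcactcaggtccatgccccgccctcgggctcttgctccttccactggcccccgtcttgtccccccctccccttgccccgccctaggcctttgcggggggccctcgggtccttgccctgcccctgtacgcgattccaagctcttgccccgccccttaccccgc
Mgst1: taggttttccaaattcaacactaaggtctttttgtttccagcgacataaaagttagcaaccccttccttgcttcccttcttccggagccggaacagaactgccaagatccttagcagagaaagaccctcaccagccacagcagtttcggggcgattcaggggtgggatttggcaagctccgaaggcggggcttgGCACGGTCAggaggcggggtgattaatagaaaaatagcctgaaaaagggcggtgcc
Gclm: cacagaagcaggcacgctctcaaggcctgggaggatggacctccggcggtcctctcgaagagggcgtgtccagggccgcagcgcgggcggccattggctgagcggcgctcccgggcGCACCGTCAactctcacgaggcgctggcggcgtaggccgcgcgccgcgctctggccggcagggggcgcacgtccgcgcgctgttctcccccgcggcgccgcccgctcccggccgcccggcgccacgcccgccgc
Txnrd1: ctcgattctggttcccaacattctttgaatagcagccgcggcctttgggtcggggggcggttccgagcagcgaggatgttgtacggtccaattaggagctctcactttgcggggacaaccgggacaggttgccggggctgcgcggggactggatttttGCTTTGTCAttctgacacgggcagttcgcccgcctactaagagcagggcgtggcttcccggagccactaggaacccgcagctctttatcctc
Prdx1: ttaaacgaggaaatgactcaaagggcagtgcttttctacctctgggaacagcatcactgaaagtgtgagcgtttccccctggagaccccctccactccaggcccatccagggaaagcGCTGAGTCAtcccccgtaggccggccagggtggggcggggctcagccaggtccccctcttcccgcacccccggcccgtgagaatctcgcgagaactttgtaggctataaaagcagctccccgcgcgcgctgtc
The first base of the match lies at position -240 in Nfe2l2, -56 in Mgst1, -134 in Gclm, -92 in Txnrd1 and -133 in Prdx1, with the base before the start as -1. It reads on the strand of the gene in Nfe2l2 and on the opposite strand in the other genes. Of the 7 genes that passed in any comparison and had a window, 2 held a match, and of the 28 others with a window 6 did.

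A minority of the antioxidant genes differed with TNF, each by less than 1 on the log2 scale. In TNF against untreated libraries, 6 of the 38 tested genes rose (Nfe2l2, Gstm2, Mgst1, Gpx4, Prdx5 and Sod3), 1 fell (Prdx6) and 31 did not pass. Passing means a limma p, adjusted by Benjamini-Hochberg across the 13026 tested genes, of less than 0.05. The share called was 18.4% of the antioxidant genes and 10.6% of all genes tested, of which 6.43% were higher and 4.21% lower. The tested antioxidant genes had a median level of 35.8 FPKM, beside 10.3 FPKM for all genes tested. Their median within-group SD on the log2 scale was 0.085, beside 0.103. How far this bears on the shares called against untreated was not tested. The libraries of the groups did not overlap for 14 of the 38 (36.8%), 11 higher and 3 lower with TNF, beside 30.0% of all genes tested. The median log2 fold change of the 38 was 0.02, that of all genes tested 3.41e-05, and the range ran from -0.56 (Gclm) to 0.56 (Mgst1). The call of Gpx4, Mgst1, Prdx5 and Sod3 held under all 15 alternative settings, and those of Nfe2l2, Gstm2 and Prdx6 did not.

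Adding WBG to TNF moved no antioxidant gene past the test. In TNF plus WBG against TNF libraries, 0 of the 38 passed with limma, in the reported fit and in each of the 15 alternatives, and 4 had an unadjusted p under 0.05 (Tkt and Prdx5 higher, Gpx4 and Gstt1 lower). That was 10.5% of the 38, beside 9.06% of all genes tested. Of all genes tested 0.0998% were called in this comparison, 0.0691% higher and 0.0307% lower. The groups did not overlap for 6 of the 38 (15.8%), beside 14.7% of all genes tested. Prdx5 and Prdx6 were higher in every TNF plus WBG library, and Gclc, Gpx4, Gstt1 and Prdx2 were lower in every one. Log2 fold changes ran from -0.35 (Gpx1) to 0.26 (Hmox1), with a median of -0.00, and the median gene had a 95% interval of 0.16 to either side. Interval widths differed between genes, that of Gpx1 being the widest, and a missed threshold does not show that the groups were alike.

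With TNF and WBG together, 7 of the 38 genes rose above untreated (Nfe2l2, Hmox1, Mgst1, Gpx4, Prdx5, Sod3 and Me1), 1 fell (Gstt1) and 30 did not pass. The share called was 21.1%, beside 9.19% of all genes tested, 5.52% higher and 3.67% lower. The groups did not overlap for 19 of the 38 (50.0%), 12 higher and 7 lower with TNF plus WBG, beside 28.1% of all genes tested. This comparison uses the same untreated libraries as TNF against untreated, so the values of the comparisons are set side by side and not as separate evidence. Genes called higher in both numbered 5: Nfe2l2, Mgst1, Gpx4, Prdx5 and Sod3. Gstm2 and Prdx6 passed with TNF alone, and Hmox1, Me1 and Gstt1 with TNF plus WBG alone. None of these last 5 passed in TNF plus WBG against TNF, which is the test of the difference.

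**Figure D2:**
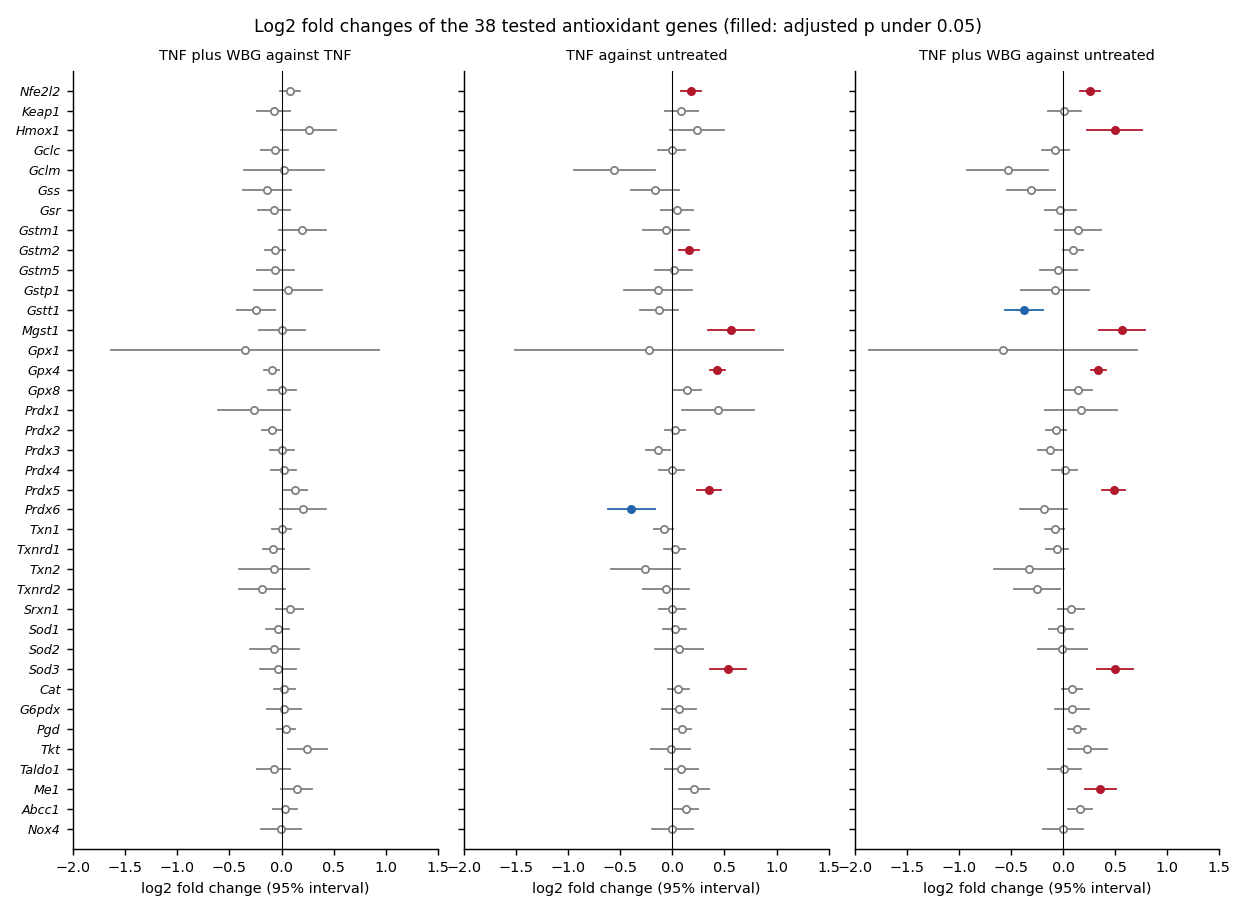
Log2 fold change of each of the 38 tested antioxidant genes with its 95% interval, in TNF plus WBG against TNF, TNF against untreated and TNF plus WBG against untreated. Filled red points rose and filled blue points fell at an adjusted p under 0.05, and open points did not pass. The left panel holds 0 filled points, the middle panel 7 and the right panel 8, and the interval of Gpx1 is the widest in each panel.

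Of the regulators, Nfe2l2 rose in both groups that received TNF. It stood at 32.5, 32.4 and 30.8 FPKM with TNF plus WBG, at 29.5, 31.4 and 29.5 FPKM with TNF and at 27.1, 26.3 and 26.2 FPKM in untreated cells. All 6 libraries with TNF lay above the 3 untreated ones, while the groups with and without WBG overlapped. For Nfe2l2 the log2 fold change was 0.18 ± 0.04 (SE) for TNF against untreated (limma adjusted p = 0.0279) and 0.26 ± 0.04 for TNF plus WBG against untreated (adjusted p = 0.00523). It was 0.08 ± 0.04 for TNF plus WBG against TNF (adjusted p = 0.639). The call with TNF alone was lost without any 1 of the 3 TNF or 3 untreated libraries and in a fit of those 6 libraries only, with adjusted p up to 0.0960 over the 15 alternatives, and the call with TNF plus WBG was kept in all of them. Keap1, the adaptor that presents NRF2 for degradation, stood at 14.3, 14.6 and 15.3 FPKM with TNF plus WBG, at 15.2, 14.6 and 17.0 FPKM with TNF and at 13.5, 15.2 and 15.1 FPKM in untreated cells. The 3 groups overlapped, and the Keap1 log2 fold change was 0.09 ± 0.07 for TNF against untreated (adjusted p = 0.509). Exons of Keap1 overlap those of an annotated gene on the opposite strand, Gm16754.

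Of the classic NRF2 targets, Hmox1, which encodes heme oxygenase-1, the enzyme that breaks down heme, rose with TNF plus WBG. It stood at 23.4, 27.1 and 20.0 FPKM with TNF plus WBG, at 18.2, 19.0 and 20.9 FPKM with TNF and at 17.1, 17.7 and 14.3 FPKM in untreated cells. Each library with TNF lay above the untreated ones, and 1 TNF library lay above the lowest TNF plus WBG library. For Hmox1 the log2 fold change was 0.49 ± 0.12 for TNF plus WBG against untreated (limma adjusted p = 0.0293), 0.23 ± 0.12 for TNF against untreated (adjusted p = 0.258) and 0.26 ± 0.12 for TNF plus WBG against TNF (adjusted p = 0.556, 95% interval -0.00 to 0.52). The call was lost when replicate 1 or 3 of untreated or replicate 1 or 2 of TNF plus WBG was left out, with no filter and in a fit of the 6 libraries compared, with adjusted p up to 0.0975. Nqo1, a quinone reductase, stood at 1.10, 0.740 and 0.542 FPKM with TNF plus WBG, at 0.477, 0.552 and 0.783 FPKM with TNF and at 0.432, 0.440 and 0.508 FPKM in untreated cells. It passed 1 FPKM in a single library and was not tested. All 3 TNF plus WBG libraries lay above the untreated ones for Nqo1, and they overlapped the TNF ones.

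No gene of glutathione synthesis passed the test. Gclc, the catalytic subunit of glutamate-cysteine ligase, the rate-limiting enzyme, stood at 8.41, 8.44 and 8.23 FPKM with TNF plus WBG, at 8.93, 8.54 and 8.96 FPKM with TNF and at 8.41, 8.66 and 9.54 FPKM in untreated cells. All 3 TNF plus WBG values lay below the TNF ones, with a Gclc log2 fold change of -0.07 ± 0.06 (limma adjusted p = 0.772), and the untreated values overlapped both. Gclm, the modifier subunit of the same enzyme, stood at 4.25, 6.91 and 5.36 FPKM with TNF plus WBG, at 4.75, 6.98 and 4.50 FPKM with TNF and at 8.17, 8.29 and 8.40 FPKM in untreated cells. Every library with TNF was lower than every untreated one, and the replicates with TNF were spread more widely than the untreated ones. The Gclm log2 fold change was -0.56 ± 0.17 for TNF against untreated (adjusted p = 0.0764) and -0.53 ± 0.17 for TNF plus WBG against untreated (adjusted p = 0.0932), neither of which passed. The adjusted p was 0.0258 with TNF replicate 2 left out and 0.0487 with TNF plus WBG replicate 2 left out, the highest library of each group. Gclm exons overlap the annotated genes Gm17494 and Gm6061.

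The enzymes that complete and recycle glutathione did not pass either. Gss, glutathione synthetase, averaged 7.24 ± 0.27 FPKM with TNF plus WBG, 8.14 ± 1.26 FPKM with TNF and 9.20 ± 0.68 FPKM in untreated cells (SD, n = 3). All 3 TNF plus WBG libraries were below the untreated ones (log2 fold change -0.31 ± 0.10, limma adjusted p = 0.104). In that comparison Gss passed as lower in the fit of the 6 libraries compared and without TNF replicate 1, and its exons overlap those of Acss2. Gsr, glutathione reductase, averaged 16.4 ± 1.28 FPKM with TNF plus WBG, 17.3 ± 0.68 FPKM with TNF and 16.7 ± 0.97 FPKM in untreated cells, and these overlapped.

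**Figure D3:**
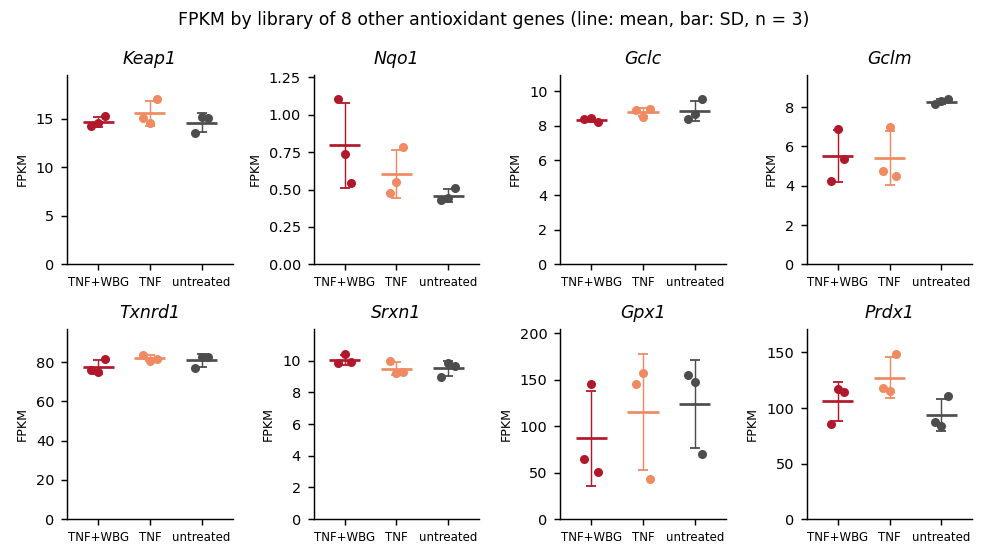
FPKM in each library of 8 antioxidant genes, with the mean (line) and SD (bar, n = 3) of TNF plus WBG, TNF and untreated cells. Nqo1 was not tested, and the others passed in none of the 3 comparisons. Each axis starts at 0. Gclm lies at 4.25 to 6.98 FPKM in the 6 libraries with TNF and at 8.17 to 8.40 FPKM in untreated cells, while Gpx1 runs from 43.3 to 157 FPKM with a wide spread in every group.

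Among the glutathione transferases, which attach glutathione to electrophiles, the membrane-bound Mgst1 rose most. It stood at 26.0, 24.9 and 27.6 FPKM with TNF plus WBG, at 25.7, 22.5 and 30.3 FPKM with TNF and at 17.6, 16.3 and 18.1 FPKM in untreated cells. The 6 libraries with TNF all lay above the untreated ones and those with WBG fell within the range of TNF alone. For Mgst1 the log2 fold change was 0.56 ± 0.10 for TNF against untreated (limma adjusted p = 0.00651), 0.57 ± 0.10 for TNF plus WBG against untreated (adjusted p = 0.00667) and 0.01 ± 0.10 for TNF plus WBG against TNF (95% interval -0.21 to 0.23). Gstm2, a mu-class transferase, stood at 53.1, 58.2 and 56.6 FPKM with TNF plus WBG, at 58.1, 59.9 and 58.0 FPKM with TNF and at 51.1, 52.1 and 53.8 FPKM in untreated cells. TNF and untreated libraries did not overlap, and the TNF plus WBG libraries overlapped both. The Gstm2 log2 fold change was 0.16 ± 0.04 for TNF against untreated (adjusted p = 0.0439), and the call was lost without any 1 of those 6 libraries, without TNF plus WBG replicate 3 and with no filter, with adjusted p up to 0.135.

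Gstt1, a theta-class transferase, fell with TNF plus WBG. It stood at 11.2, 12.4 and 11.2 FPKM with TNF plus WBG, at 12.9, 15.9 and 13.2 FPKM with TNF and at 16.1, 14.8 and 15.1 FPKM in untreated cells. Each TNF plus WBG library lay below every other one, and the TNF and untreated libraries overlapped. The Gstt1 log2 fold change was -0.37 ± 0.08 for TNF plus WBG against untreated (limma adjusted p = 0.0203), -0.13 ± 0.08 for TNF against untreated (adjusted p = 0.387) and -0.25 ± 0.08 for TNF plus WBG against TNF (unadjusted p = 0.0139 and adjusted p = 0.473, limma). The call against untreated was lost when replicate 1 or 3 of untreated or of TNF plus WBG was left out and with no filter, with adjusted p up to 0.0746. The pi-class Gstp1, the second most abundant of the 42 genes, averaged 263 ± 23.0 FPKM with TNF plus WBG, 253 ± 28.2 FPKM with TNF and 281 ± 59.0 FPKM in untreated cells (SD, n = 3). The mu-class Gstm1 averaged 67.2 FPKM with TNF plus WBG, 58.6 FPKM with TNF and 60.9 FPKM in untreated cells, and Gstm5 averaged 25.9 FPKM with TNF plus WBG, 27.0 FPKM with TNF and 26.7 FPKM in untreated cells. Both overlapped between all groups, and Gsta4 did not exceed 0.108 FPKM. Mu-class genes and Gstp1 have closely similar copies, and how reads shared between copies were counted is not given in the sources used here.

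Among the glutathione peroxidases, Gpx4, the selenoenzyme that reduces lipid hydroperoxides in membranes and holds off ferroptosis, had the smallest adjusted p of the antioxidant genes. It stood at 301, 306 and 308 FPKM with TNF plus WBG, at 325, 336 and 317 FPKM with TNF and at 246, 243 and 236 FPKM in untreated cells. No group overlapped another: TNF was highest, TNF plus WBG between and untreated lowest. Gpx4 changed by a log2 fold change of 0.43 ± 0.03 for TNF against untreated (limma adjusted p = 4.54e-05) and 0.34 ± 0.03 for TNF plus WBG against untreated (adjusted p = 0.000242). It was -0.09 ± 0.03 for TNF plus WBG against TNF, with an unadjusted p of 0.0160 and an adjusted p of 0.482 in limma. Gpx1, the abundant cytosolic peroxidase, stood at 64.2, 146 and 50.9 FPKM with TNF plus WBG, at 145, 157 and 43.3 FPKM with TNF and at 155, 148 and 69.6 FPKM in untreated cells. Each group held high libraries (145 to 157 FPKM) and low ones (43.3 to 69.6 FPKM), and the 3 groups overlapped throughout. Replicate 2 was high and replicate 3 low in all 3 groups, while replicate 1 was low only with TNF plus WBG. Whether this split follows the replicate number was not tested. Its within-group SD on the log2 scale exceeded that of 99.6% of tested genes, the highest library was 3.62 times the lowest, and the interval for TNF against untreated ran from -1.51 to 1.06. No other annotated exon overlaps Gpx1. Gpx8, an endoplasmic reticulum peroxidase, averaged 72.3 FPKM with TNF plus WBG, 72.1 FPKM with TNF and 65.5 FPKM in untreated cells. Gpx3 averaged 0.479 FPKM with TNF plus WBG, 0.556 FPKM with TNF and 0.293 FPKM in untreated cells.

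Among the peroxiredoxins, which reduce peroxides with electrons from thioredoxin, Prdx5 rose and Prdx6 fell with TNF. Prdx5, found in mitochondria and peroxisomes, stood at 69.4, 73.0 and 76.6 FPKM with TNF plus WBG, at 64.2, 68.2 and 66.9 FPKM with TNF and at 51.3, 54.4 and 50.0 FPKM in untreated cells. No group overlapped another, and the order was TNF plus WBG, TNF, untreated. Prdx5 had a log2 fold change of 0.35 ± 0.05 for TNF against untreated (limma adjusted p = 0.00202), 0.48 ± 0.05 for TNF plus WBG against untreated (adjusted p = 0.000347) and 0.13 ± 0.05 for TNF plus WBG against TNF (unadjusted p = 0.0244 and adjusted p = 0.503, limma). Prdx5 exons overlap those of Trmt112, whose share of its reads was not tested. Prdx6, which takes its electrons from glutathione, stood at 94.0, 93.6 and 108 FPKM with TNF plus WBG, at 85.1, 90.4 and 80.0 FPKM with TNF and at 121, 95.7 and 122 FPKM in untreated cells. The TNF libraries were the lowest of the 9, and TNF plus WBG overlapped untreated. The Prdx6 log2 fold change was -0.39 ± 0.10 for TNF against untreated (adjusted p = 0.0366), -0.19 ± 0.10 for TNF plus WBG against untreated (adjusted p = 0.309) and 0.21 ± 0.10 for TNF plus WBG against TNF (adjusted p = 0.589). Its call was lost without untreated replicate 1 or 3, without any 1 TNF library, with TNF plus WBG replicate 1 or 2 left out, with no filter and in a fit of the 6 libraries compared, with adjusted p up to 0.121.

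The other peroxiredoxins did not pass. Prdx1, a cytosolic enzyme and a standard NRF2 target, stood at 86.0, 117 and 115 FPKM with TNF plus WBG, at 118, 116 and 149 FPKM with TNF and at 87.6, 83.7 and 110 FPKM in untreated cells. The TNF libraries lay above the untreated ones, 116 FPKM against 110 FPKM at the nearest, and TNF plus WBG overlapped both. The Prdx1 log2 fold change was 0.44 ± 0.15 for TNF against untreated (limma adjusted p = 0.114), as large as that of Gpx4 with an SE several times wider. Prdx2 averaged 175 ± 2.83 FPKM with TNF plus WBG, 187 ± 1.18 FPKM with TNF and 184 ± 11.6 FPKM in untreated cells (SD, n = 3). The mitochondrial Prdx3 averaged 40.9 FPKM with TNF plus WBG, 40.7 FPKM with TNF and 44.9 FPKM in untreated cells, and the endoplasmic reticulum Prdx4 averaged 60.0 FPKM with TNF plus WBG, 59.0 FPKM with TNF and 59.3 FPKM in untreated cells. Prdx3 passed as lower with TNF in the fit without untreated replicate 2.

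**Figure D4:**
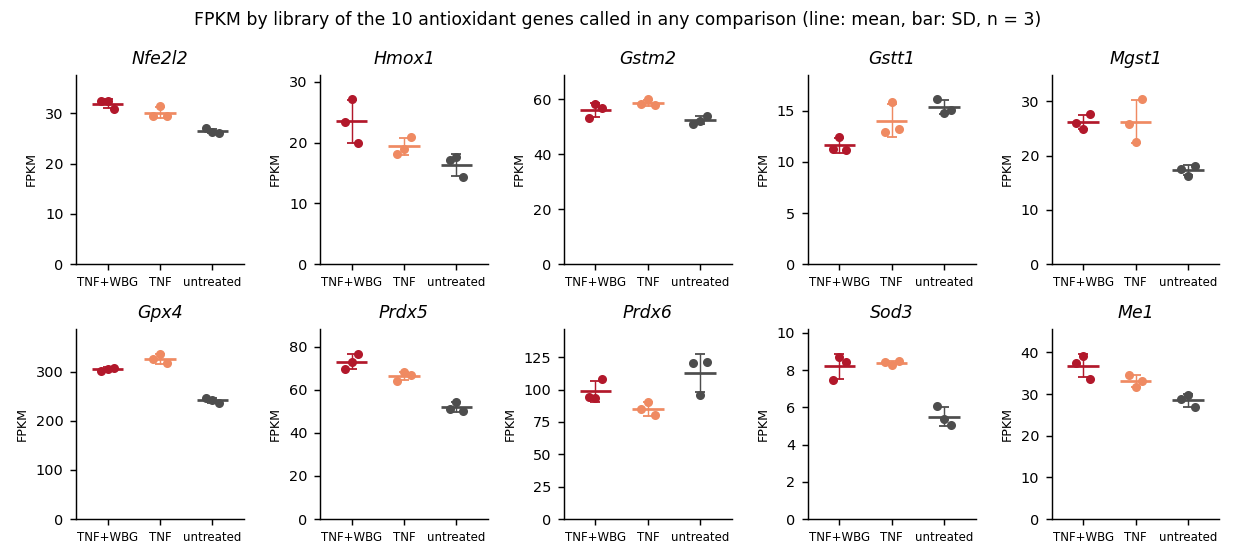
FPKM in each library of the 10 antioxidant genes that passed in any comparison, with the mean (line) and SD (bar, n = 3) of TNF plus WBG, TNF and untreated cells; each axis starts at 0. Gpx4 lies at 301 to 336 FPKM in the 6 libraries with TNF and at 236 to 246 FPKM in untreated cells, and none of the 10 passed between TNF plus WBG and TNF.

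None of the 5 thioredoxin system genes passed in any comparison. Txnrd1, the cytosolic thioredoxin reductase and an NRF2 target, stood at 76.0, 75.1 and 81.6 FPKM with TNF plus WBG, at 83.8, 80.6 and 81.5 FPKM with TNF and at 77.1, 82.7 and 82.7 FPKM in untreated cells. Srxn1, sulfiredoxin, which repairs over-oxidised peroxiredoxins, stood at 9.87, 10.4 and 9.90 FPKM with TNF plus WBG, at 9.97, 9.21 and 9.28 FPKM with TNF and at 8.98, 9.88 and 9.68 FPKM in untreated cells. Both genes overlapped between all groups. For TNF against untreated the log2 fold change was 0.02 for Txnrd1 (95% interval -0.08 to 0.12) and -0.00 for Srxn1 (-0.13 to 0.12). Thioredoxin, Txn1, averaged 135 ± 5.99 FPKM with TNF plus WBG, 135 ± 2.54 FPKM with TNF and 143 ± 3.07 FPKM in untreated cells. All 6 libraries with TNF were below every untreated one, 140.5 FPKM against 140.9 FPKM at the nearest. The limma adjusted p values of Txn1 against untreated were 0.257 with TNF plus WBG and 0.238 with TNF. The mitochondrial thioredoxin Txn2 averaged 40.5 FPKM with TNF plus WBG, 42.7 FPKM with TNF and 50.8 FPKM in untreated cells, and its reductase Txnrd2 averaged 8.70 FPKM with TNF plus WBG, 10.1 FPKM with TNF and 10.6 FPKM in untreated cells. Both were lower in every TNF plus WBG library than in every untreated one, with log2 fold changes of -0.33 for Txn2 (adjusted p = 0.224) and -0.25 for Txnrd2 (adjusted p = 0.157) in limma.

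Of the superoxide dismutases and catalase, Sod3, the secreted superoxide dismutase, was called. It stood at 7.45, 8.72 and 8.41 FPKM with TNF plus WBG, at 8.43, 8.27 and 8.47 FPKM with TNF and at 6.06, 5.38 and 5.05 FPKM in untreated cells. All 6 libraries with TNF lay above the untreated ones and the groups with and without WBG overlapped. Sod3 had log2 fold changes of 0.53 ± 0.08 for TNF against untreated (limma adjusted p = 0.00219), 0.50 ± 0.08 for TNF plus WBG against untreated (adjusted p = 0.00354) and -0.03 ± 0.08 for TNF plus WBG against TNF (95% interval -0.21 to 0.14). Sod2, the mitochondrial dismutase and a well known NF-kappaB target, stood at 14.9, 14.3 and 13.2 FPKM with TNF plus WBG, at 15.3, 17.4 and 12.4 FPKM with TNF and at 14.5, 14.0 and 14.1 FPKM in untreated cells. The untreated values of Sod2 fell within the range of the TNF ones, with a log2 fold change of 0.06 (95% interval -0.17 to 0.30). Sod1 lay at 224 to 243 FPKM with TNF plus WBG, 233 to 253 FPKM with TNF and 226 to 249 FPKM in untreated cells, and Cat, catalase, averaged 29.7 FPKM with TNF plus WBG, 29.1 FPKM with TNF and 27.9 FPKM in untreated cells.

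Among the NADPH sources, Me1, the cytosolic malic enzyme, rose with TNF plus WBG. It stood at 37.6, 39.2 and 33.7 FPKM with TNF plus WBG, at 34.5, 31.8 and 33.1 FPKM with TNF and at 28.9, 29.9 and 26.8 FPKM in untreated cells. Both groups with TNF lay above untreated and overlapped each other. Me1 had log2 fold changes of 0.36 ± 0.07 for TNF plus WBG against untreated (limma adjusted p = 0.00946), 0.21 ± 0.07 for TNF against untreated (adjusted p = 0.0824) and 0.15 ± 0.07 for TNF plus WBG against TNF (adjusted p = 0.555). Of the 15 alternatives, Me1 passed in TNF against untreated only when TNF plus WBG replicate 3 was left out (adjusted p = 0.0492), and its exons overlap those of A330041J22Rik.

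The pentose phosphate enzymes did not pass. Pgd, which makes NADPH in the oxidative branch, averaged 63.9 ± 1.88 FPKM with TNF plus WBG, 61.9 ± 1.51 FPKM with TNF and 58.1 ± 1.38 FPKM in untreated cells. All 6 libraries with TNF were above the untreated ones for Pgd, with limma adjusted p values of 0.0616 with TNF plus WBG and 0.193 with TNF. Tkt, transketolase of the non-oxidative branch, stood at 80.6, 90.3 and 84.3 FPKM with TNF plus WBG, at 68.3, 65.8 and 80.9 FPKM with TNF and at 70.4, 78.0 and 68.5 FPKM in untreated cells. All TNF plus WBG values of Tkt lay above the untreated ones, and the lowest was just under the highest TNF value. The Tkt log2 fold change was 0.25 ± 0.08 for TNF plus WBG against TNF (unadjusted p = 0.0162 and adjusted p = 0.483, limma). G6pdx, the enzyme that opens the pathway, averaged 32.0 FPKM with TNF plus WBG, 31.5 FPKM with TNF and 30.2 FPKM in untreated cells, and Taldo1, transaldolase, averaged 38.2 FPKM with TNF plus WBG, 40.3 FPKM with TNF and 37.8 FPKM in untreated cells. Both overlapped between all groups. Abcc1, which exports glutathione conjugates, averaged 21.7 ± 1.12 FPKM with TNF plus WBG, 21.2 ± 0.59 FPKM with TNF and 19.3 ± 0.81 FPKM in untreated cells, with limma adjusted p values against untreated of 0.0931 with TNF plus WBG and 0.169 with TNF. Nox4, an oxidase that produces hydrogen peroxide, averaged 1.39 FPKM with TNF plus WBG, 1.40 FPKM with TNF and 1.39 FPKM in untreated cells.

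Other genes of the same pathways came from 6 lists of 120 genes in all, of which 89 were tested. In TNF against untreated 12 rose and 6 fell (20.2%, beside 10.6% of all genes tested), in TNF plus WBG against TNF 0 passed with limma in the reported fit and 14 had an unadjusted p under 0.05 (15.7%, beside 9.06% of all genes tested), and in TNF plus WBG against untreated 13 rose and 4 fell (19.1%, beside 9.19%). Of the 18 calls with TNF 8 held in every alternative (Nfe2l1, Sqstm1, Ephx1, Slc48a1, Ggt1, Gsto1, Sesn1 and Xdh), and of the 17 with TNF plus WBG against untreated 8 did (Nfe2l1, Sqstm1, Maff, Ggt1, Chac1, Sesn1, Mthfd2 and Xdh). For Chac1 this covers the 14 alternatives in which it was tested, since it fell out at a mean of at least 5 FPKM. Every other call named for these lists was lost when at least 1 library was left out, and those libraries are given with each gene, beside the highest adjusted p over the alternatives.

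Of the 14 tested regulators and partners of NRF2, 3 rose with TNF and none fell. Nfe2l1, which encodes the related factor NRF1, stood at 60.4, 65.3 and 59.9 FPKM with TNF plus WBG, at 61.2, 59.8 and 59.5 FPKM with TNF and at 40.6, 41.4 and 40.0 FPKM in untreated cells. The untreated libraries lay far below the others. The Nfe2l1 log2 fold change was 0.56 ± 0.04 with TNF (limma adjusted p = 4.55e-05) and 0.59 ± 0.04 with TNF plus WBG (adjusted p = 3.71e-05) against untreated. Sqstm1, which encodes p62, a receptor of autophagy that can draw KEAP1 away from NRF2, stood at 246, 255 and 245 FPKM with TNF plus WBG, at 239, 233 and 242 FPKM with TNF and at 204, 202 and 203 FPKM in untreated cells (log2 fold changes against untreated of 0.29 with TNF plus WBG and 0.23 with TNF). Its exons overlap those of Mrnip on the opposite strand. Maff, a small MAF partner, had log2 fold changes of 0.52 with TNF plus WBG and 0.26 with TNF against untreated. The Maff call with TNF was lost without replicate 1 or 2 of untreated, any 1 TNF library or replicate 1 of TNF plus WBG (limma adjusted p up to 0.115). Bach1, a repressor that competes with NRF2 for its sites, rose with TNF plus WBG against untreated by 0.36 on the log2 scale (limma adjusted p = 0.0139, and 0.0542 without replicate 2 of TNF plus WBG). In TNF plus WBG against TNF the regulator with the largest difference was Gsk3b, a kinase that marks NRF2 for degradation (log2 fold change 0.32, adjusted p = 0.749).

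Among other detoxification enzymes, Ephx1, the microsomal epoxide hydrolase, rose against untreated, with log2 fold changes of 0.26 with TNF plus WBG and 0.34 with TNF, the TNF plus WBG call being lost without replicate 1 of untreated or any 1 TNF plus WBG library (limma adjusted p up to 0.0959). Slc48a1, a heme transporter, and Ptgr1, a reductase of reactive aldehydes and prostaglandins, each rose by 0.31 on the log2 scale with TNF, Ptgr1 not without replicate 1 of untreated or replicate 2 or 3 of TNF (limma adjusted p up to 0.0740). Aldh3a1, an aldehyde dehydrogenase, fell by 0.22 with TNF plus WBG and fell by 0.21 with TNF on the log2 scale. Its TNF plus WBG call was lost without replicate 2 or 3 of untreated or replicate 1 or 2 of TNF plus WBG (limma adjusted p up to 0.0706), and its TNF call without replicate 2 or 3 of untreated or replicate 1 or 3 of TNF (up to 0.0824). Osgin1 had the widest log2 difference between TNF plus WBG and TNF of these lists (0.83 ± 0.34, limma adjusted p = 0.528). It stood at 3.94, 4.22 and 3.79 FPKM with TNF plus WBG, at 3.61, 0.996 and 1.41 FPKM with TNF and at 4.07, 4.76 and 1.78 FPKM in untreated cells, so that 1 TNF library lay near those with WBG and 1 untreated library near the other TNF ones.

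Of the 19 other glutathione genes tested, 3 rose and 1 fell with TNF plus WBG and 2 rose and 3 fell with TNF, each against untreated. Ggt1, which cleaves glutathione outside the cell, stood at 25.9, 24.4 and 24.0 FPKM with TNF plus WBG, at 27.9, 26.0 and 27.8 FPKM with TNF and at 17.1, 14.9 and 18.9 FPKM in untreated cells, with log2 fold changes against untreated of 0.53 with TNF plus WBG and 0.66 with TNF. Chac1, which cleaves glutathione inside the cell, rose on the log2 scale by 0.55 with TNF plus WBG and by 0.39 with TNF, the TNF call being lost without replicate 1 or 3 of untreated, replicate 1 or 2 of TNF, or replicate 1 or 2 of TNF plus WBG (limma adjusted p up to 0.125). Ggct, which acts on the gamma-glutamyl products, fell by 0.61 with TNF plus WBG and fell by 0.70 with TNF on the log2 scale. The TNF plus WBG call of Ggct was lost without any 1 untreated library, replicate 3 of TNF or replicate 2 or 3 of TNF plus WBG (limma adjusted p up to 0.124), and its TNF call without replicate 1 or 2 of untreated or replicate 1 or 3 of TNF (up to 0.0775). Gsto1, an omega-class transferase, stood at 113, 106 and 119 FPKM with TNF plus WBG, at 109, 74.2 and 69.8 FPKM with TNF and at 148, 141 and 147 FPKM in untreated cells. Replicate 1 of TNF lay among the TNF plus WBG libraries and the other two TNF libraries below them. The Gsto1 log2 fold change was -0.80 ± 0.14 for TNF against untreated (limma adjusted p = 0.00708), -0.37 ± 0.14 for TNF plus WBG against untreated (adjusted p = 0.160) and 0.44 ± 0.14 for TNF plus WBG against TNF (adjusted p = 0.473). Slc25a39, the mitochondrial glutathione carrier, fell by 0.17 on the log2 scale with TNF (limma adjusted p = 0.0481), a call lost without any 1 of the 9 libraries (up to 0.136). Glrx, glutaredoxin, rose by 0.45 on the log2 scale with TNF plus WBG, and not without replicate 3 of untreated (limma adjusted p = 0.0622).

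Log2 fold changes against untreated are given for the remaining lists. Of the stress-induced sestrins, Sesn1 fell by 0.39 with TNF plus WBG and fell by 0.36 with TNF, while Sesn2 rose by 0.32 with TNF plus WBG, a call lost without replicate 1 or 3 of untreated or replicate 1 or 2 of TNF plus WBG (limma adjusted p up to 0.106). Selenop, the secreted selenium carrier whose exons overlap Ccdc152, fell by 0.24 with TNF plus WBG and fell by 0.21 with TNF. Its calls were lost without replicate 1 or 2 of untreated, and without replicate 1 or 2 of the treated group compared (limma adjusted p up to 0.0568 with TNF plus WBG and 0.0873 with TNF).

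Of other NADPH sources, the folate enzyme Mthfd2 rose by 0.36 with TNF plus WBG and by 0.30 with TNF, the TNF call being lost without replicate 3 of untreated or any 1 TNF library (limma adjusted p up to 0.0582). The cytosolic isocitrate dehydrogenase Idh1 rose by 0.25 with TNF plus WBG and by 0.27 with TNF. Its TNF plus WBG call was lost without replicate 2 or 3 of untreated, replicate 2 of TNF or any 1 TNF plus WBG library (limma adjusted p up to 0.126), and its TNF call without replicate 2 or 3 of untreated or TNF (up to 0.0876). Mthfd1l, another folate enzyme, rose by 0.28 with TNF plus WBG, and not without replicate 1 or 3 of untreated, any 1 TNF library or replicate 1 or 2 of TNF plus WBG (limma adjusted p up to 0.141). Rpe, a pentose phosphate epimerase whose exons overlap Kansl1l, rose by 0.59 with TNF, and not without replicate 2 or 3 of untreated or any 1 library with TNF (limma adjusted p up to 0.130). In TNF plus WBG against TNF the largest differences of these lists were 0.52 for Txndc5, a disulfide isomerase, and -0.35 for Nadk, which makes NADP, and neither passed (limma adjusted p = 0.641 and 0.660).

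Of the 14 oxidant-producing genes 12 were not tested, and Cybb and Cyba, the membrane subunits of the phagocyte NADPH oxidase, were listed at 0. Xdh, xanthine dehydrogenase, whose oxidase form makes superoxide, was the called gene of this list. It stood at 21.5, 27.9 and 25.7 FPKM with TNF plus WBG, at 23.4, 23.7 and 24.4 FPKM with TNF and at 14.4, 17.4 and 14.5 FPKM in untreated cells, and the untreated libraries lay below all others. Xdh had log2 fold changes of 0.66 ± 0.10 for TNF plus WBG against untreated (limma adjusted p = 0.00341), 0.60 ± 0.10 for TNF against untreated (adjusted p = 0.00507) and 0.06 ± 0.10 for TNF plus WBG against TNF (adjusted p = 0.905).

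**Figure D5:**
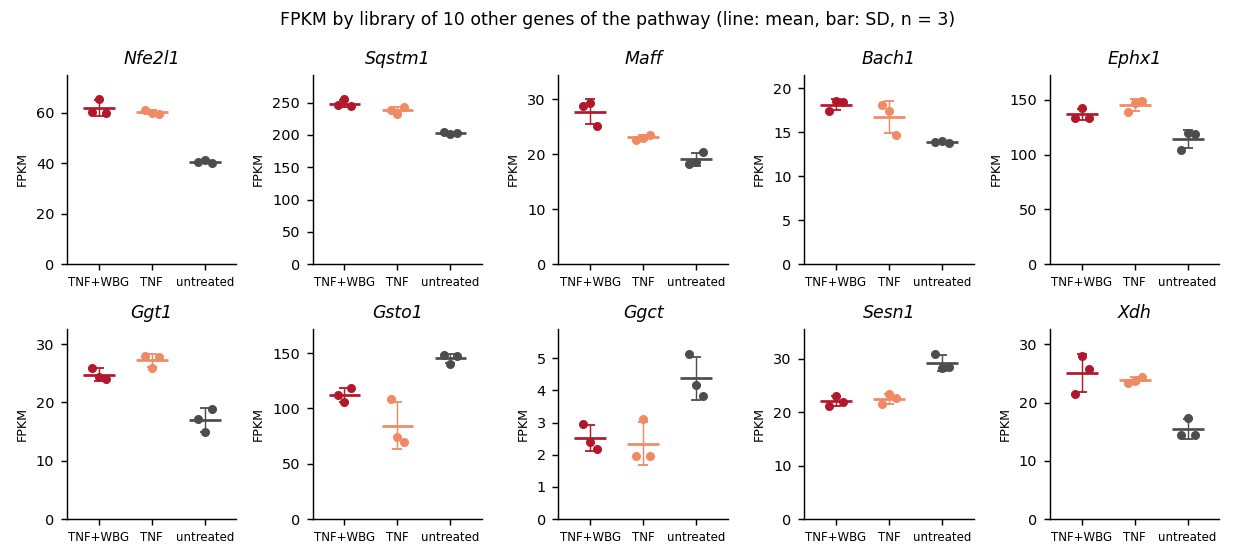
FPKM in each library of 10 other genes of the pathways, with the mean (line) and SD (bar, n = 3) of TNF plus WBG, TNF and untreated cells; each axis starts at 0. Nfe2l1 lies at 59.5 to 65.3 FPKM in the 6 libraries with TNF and at 40.0 to 41.4 FPKM in untreated cells, and Gsto1 and Ggct are lower in every library with TNF than in the untreated ones.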

How the data were processed

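Poly-A RNA of 9 libraries, grouped by the treatment label, was sequenced as paired ends (TruSeq kit, Illumina, per the labels' protocols, which do not state strand). The deposited values are FPKM per Ensembl gene and library, made by the authors; no counts are in the table, and no label names the aligner, program, annotation or genome build (not given in the sources used here). Gene symbols came from GENCODE M21 by identifier (55144 of 56289 matched, 1145 did not).

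FPKM was taken as log2(FPKM + 1). Genes with at least 1 FPKM in at least 3 of the 9 libraries (13026) entered 1 limma-trend fit of all 9 libraries with group as the only term (R 4.3.3, limma 3.58.1). Tests of the 3 contrasts were two-sided, with Benjamini-Hochberg adjustment across the 13026 genes and calls below 0.05. Fold changes hold the pseudocount and understate the change of low genes. The pipeline was tested on simulated data. Members, lists and tests were chosen with earlier results of these data known.

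The rule for named genes gave Nfe2l2, Keap1, Hmox1, Nqo1, Gclc, Gclm, Txnrd1, Srxn1 and every called member their value in each library, and took from each other list up to 3 called genes per direction and comparison, or the largest difference where none was called. Values by library of other genes (Gpx1, Prdx1, Sod2, Tkt and others) were chosen after their values were seen. Exon overlap was taken from GENCODE M21 and promoter windows from RefSeq (GRCm38.p6). The labels do not say whether same-numbered libraries were paired. Deviations of same-numbered libraries correlated at -0.07 to 0.11, over 0.1 in 1 of 9 pairs, and those of differently numbered ones at -0.10 to 0.09. These values over all tested genes cannot show whether libraries were paired. Scripts ran in Python 3.11.15 with pandas 2.3.3, numpy 2.4.6 and matplotlib 3.10.9. No library was left out.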

Additional observations from a re-analysis of the deposited data

How the results depend on the processing

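The alternatives were a pseudocount of 0.1, no filter, a mean of at least 5 FPKM, median-ratio scaling, a fit of only the 6 libraries compared, a replicate block, and omission of each of the 9 libraries. No called gene reversed its direction under any of the 15. Of the antioxidant genes higher with TNF, 6 became 5 with no filter and in the 6-library fit, and 4 to 6 when a library was left out. The 1 gene lower with TNF became 0 with no filter, 0 in the 6-library fit and 0 to 2 when a library was left out. Against untreated, the 7 genes higher with TNF plus WBG became 6 to 7, and the 1 lower became 0 with no filter, 2 in the 6-library fit (Gss was added) and 0 to 2 when a library was left out. In TNF plus WBG against TNF the count was 0 throughout. Over all genes, the 837 higher and 549 lower calls with TNF became as few as 561 and 353 when a library was left out. With no filter more genes are adjusted for, and with a library left out or 6 libraries fewer degrees of freedom remain; other causes were not tested.

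The best match of a library in another group carried its own number in 2 of 18 cases, which cannot settle whether same-numbered libraries were paired. With the replicate block the antioxidant genes called were 6 higher and 1 lower with TNF, 0 in TNF plus WBG against TNF, and 7 higher and 1 lower with TNF plus WBG against untreated. In TNF against untreated the block added Gclm (limma adjusted p = 0.0443) and Prdx1 and left out Gstm2 (0.0522) and Prdx6 (0.0634).

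Depth is not known from counts, so no counting interval is given, and low genes such as Nqo1 have no measure of precision other than their 3 libraries.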
